A study of Mus musculus with 12 samples.

Results

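The core circadian clock genes were described in mouse forebrain: Npas2, Clock, Arntl, Per1, Per2, Per3, Cry1, Cry2, Nr1d1 and Dbp. They were found by symbol in the authors' expression table, and all 10 were present among its 12158 genes. All 10 also passed a filter on low values (a mean above −2 log2 RPKM over all libraries), which 12102 genes passed. RPKM is the number of reads scaled by gene length and by the size of the library, and every value below is on its log2 scale unless another scale is named.

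The forebrains came from C57BL/6N mice of 2 genotypes, Chd8+/del5 heterozygotes, in which 1 copy of the chromatin remodeller gene Chd8 carries a germline mutation, and their wild-type littermates. The tissue was taken at embryonic stages e12.5, e14.5 and e17.5, at birth (P0) and from adults (labelled P56). The table held 8, 9, 10, 11 and 6 libraries of these stages, 44 in all. The labels list 10 RNA samples, 1 of each genotype and stage, and no label ties a column to a genotype, so libraries were grouped by stage alone and each stage mixes both genotypes. No comparison of genotypes was made.

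The clock is a loop of transcription. ARNTL pairs with CLOCK, or with its close relative NPAS2, and the pair binds E-box sequences and turns on the Period (Per) and Cryptochrome (Cry) genes, Nr1d1 and Dbp. PER and CRY proteins return to the nucleus and repress the pair, and NR1D1 (REV-ERB alpha) represses Arntl, so that in a rhythmic tissue Arntl and Npas2 peak at another time of day than Per, Nr1d1 and Dbp. DBP carries the rhythm to output genes through D-box sequences. In forebrain NPAS2 is prominent beside CLOCK. The time of day at which tissue was taken is not given in the sources used here.

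Promoters of the clock genes were searched for the sequences through which these proteins act on each other. RefSeq windows of 300 bases (250 before and 50 after an annotated start, build GRCm38.p6) were at hand for 9 of the 10 genes, 13 windows in all, and none matched Per2. The E-box CACGTG lay in 1 window each of Per1 and Cry1, and 7.15% of all 32851 windows held it. The D-box, searched as TTATGTAA and TTACGTAA, lay 2 times in the Per3 window, against 1.06% of all windows with at least 1 match. The core bound by REV-ERB and ROR proteins, searched as TAGGTCA and TGGGTCA, lay in 1 window of Arntl, against 6.45% of all windows. The cAMP response element TGACGTCA was in 0 of the 13 windows, against 1.79% of all. Both strands were searched, no 2 matches overlapped, and a match is a description of letters and not a shown binding site. The 4 windows with a match are printed 5′ to 3′ on the strand of the gene, with the match in capitals, and the Cry2 window is added because Cry2 was the closest partner of Per3 among the clock genes.
Per1 (chr11:69098699-69098998, plus strand): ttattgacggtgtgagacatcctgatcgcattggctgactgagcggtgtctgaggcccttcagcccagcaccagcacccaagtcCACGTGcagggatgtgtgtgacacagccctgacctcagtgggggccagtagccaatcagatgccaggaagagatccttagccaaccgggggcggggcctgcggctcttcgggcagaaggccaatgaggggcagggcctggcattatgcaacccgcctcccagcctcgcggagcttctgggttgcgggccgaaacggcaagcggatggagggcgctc
Cry1 (chr10:85185005-85185304, minus strand): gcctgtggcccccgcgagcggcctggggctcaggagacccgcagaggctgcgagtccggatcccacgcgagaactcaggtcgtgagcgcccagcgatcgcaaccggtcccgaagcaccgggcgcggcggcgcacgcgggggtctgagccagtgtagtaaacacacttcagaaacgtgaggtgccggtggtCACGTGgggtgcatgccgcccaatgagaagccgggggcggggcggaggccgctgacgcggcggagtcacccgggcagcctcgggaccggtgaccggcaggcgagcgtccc
Per3 (chr4:151044616-151044915, minus strand): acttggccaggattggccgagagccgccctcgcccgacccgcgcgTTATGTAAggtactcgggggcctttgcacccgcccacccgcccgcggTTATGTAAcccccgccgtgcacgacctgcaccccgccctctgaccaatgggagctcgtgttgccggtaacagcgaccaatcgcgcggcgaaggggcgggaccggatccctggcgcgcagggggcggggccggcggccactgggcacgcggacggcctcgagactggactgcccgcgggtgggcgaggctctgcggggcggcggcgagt
Arntl (chr7:113207261-113207560, plus strand): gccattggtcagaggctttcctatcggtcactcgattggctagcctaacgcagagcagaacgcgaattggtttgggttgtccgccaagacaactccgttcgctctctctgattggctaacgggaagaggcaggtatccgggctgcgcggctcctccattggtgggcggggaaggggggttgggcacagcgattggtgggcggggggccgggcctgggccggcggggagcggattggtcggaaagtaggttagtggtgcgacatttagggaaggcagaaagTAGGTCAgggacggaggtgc
Cry2 (chr2:92434020-92434319, minus strand): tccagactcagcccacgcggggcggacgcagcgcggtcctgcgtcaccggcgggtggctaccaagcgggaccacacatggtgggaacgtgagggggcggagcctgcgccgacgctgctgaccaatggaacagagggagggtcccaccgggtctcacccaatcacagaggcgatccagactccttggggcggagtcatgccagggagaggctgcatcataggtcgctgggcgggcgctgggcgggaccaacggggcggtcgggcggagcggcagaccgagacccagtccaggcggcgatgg
Counted with the start itself as 0, the E-box ran from −166 to −161 in Per1 and from −60 to −55 in Cry1. The D-boxes of Per3 began at −205 and −158, both on the strand of the gene. The Arntl match ran from 30 to 36, after the start.

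Depth per library is unknown, because the table holds no counts, and no interval that needs it is given. All 8 forebrain markers fixed for a check of the dissection (Emx1, Neurod6 and others) were in the table, with a summed level of 164 to 978 RPKM over all libraries, while 1 of 8 midbrain and hindbrain markers, En1, was in it. P0 libraries 3 and 5 had En1 at 7.09 and 5.09 RPKM, against 0.0718 to 1.11 RPKM in the other 9, and the lowest forebrain marker sums of that stage (472 and 559 RPKM). Of 8 markers of the suprachiasmatic nucleus, the master pacemaker in the hypothalamus, 4 were in the table and Six6, Avp, Nms and Prok2 were not. Adult library 1 stood apart, with dividing progenitor markers summing to 23.8 RPKM against 1.4 to 1.83 in the other 5 adult libraries, and r of the adult pairs with the highest values is also given without it. Reads of e12.5 were paired and 100 bp long, those of the other stages single and 50 bp long, and read type and e12.5 cannot be told apart. Column names of e17.5 hold 2 series of sample numbers, 5 libraries each, between which all 10 genes overlapped, and 0.00826% of all genes were apart. Whether values were adjusted between the series before deposit is not stated, so this does not show how alike the series were before that. Chd8, the targeted gene, had stage medians of 3.72 to 4.31. Its values fell into separate clusters at e17.5 (7 libraries at 3.70 to 4.05, 3 at 4.45 to 4.50) and in adults (3 at 3.08 to 3.42, 3 at 4.03 to 4.15), so no r over all libraries of these stages is given. At these stages the widest gap between Chd8 values was 49.7% and 56.8% of the range. It was 23.3%, 46.6% and 19.0% at e12.5, e14.5 and P0. Whether libraries of a stage are separate animals is not stated, so ranges and p-values may cover technical spread only.

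Between neighbouring stages each clock gene either was higher at the later one or overlapped. Npas2, Arntl, Per1, Nr1d1 and Cry2 were higher at P0 than at e14.5. All but Arntl and Cry1 were higher in adults than at P0, Dbp and Per3 by the most. A gene was called higher or lower between 2 stages when the ranges of their libraries did not overlap, and no p-value was computed, since genotypes are mixed. In bulk tissue, fewer cells of a type and less RNA per cell cannot be told apart.

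From e14.5 to P0, 5 of the 10 genes were called higher and 0 lower, where 45.8% of all 12102 genes were called, 22.7% higher and 23.1% lower. The median difference over the 10 genes was 0.61, against −0.04 over all genes. From P0 to adult, 8 were called higher and 0 lower, against 54.5% of all genes, 29.3% higher and 25.2% lower, and the median difference was 1.46 against −0.01. The shorter steps gave 5 higher from e12.5 to e14.5 (23.1% of all genes higher, 22.3% lower), 3 from e14.5 to e17.5 (13.1% and 12.1%) and 5 from e17.5 to P0 (4.89% and 6.28%), with 0 lower in each. After quantile normalization 2 were higher and 1 was lower from e12.5 to e14.5.

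**Figure D1:**
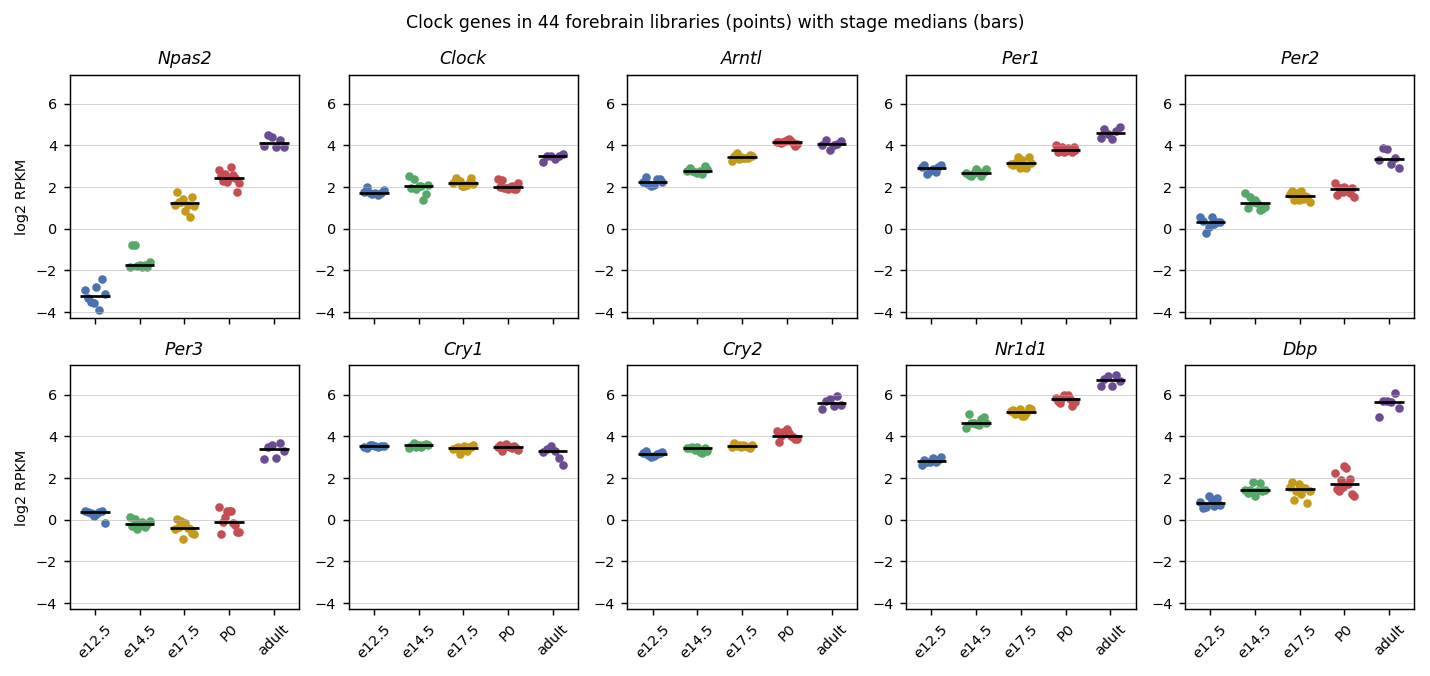
Level of each clock gene (log2 RPKM, vertical axis) in every library (points) by stage (horizontal axis), with the stage median as a black bar; all panels share 1 scale. Npas2 climbs at every stage, from a median of −3.21 to 4.09, Dbp and Per3 step up between P0 and adult, and Cry1 stays between medians of 3.29 and 3.58.

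Npas2, the forebrain partner of ARNTL, had the widest span of the 10 genes. Its values were −2.94, −3.31, −3.49, −3.54, −2.81, −3.90, −2.43 and −3.11 in e12.5 libraries 1 to 8. At e14.5 they were −1.85, −0.80, −0.80, −1.77, −1.74, −1.85, −1.76, −1.82 and −1.59, with libraries 2 and 3 above the other 7. The range was 0.57 to 1.75 at e17.5 (median 1.21) and 1.78 to 2.98 at P0 (median 2.44). Adult values were 3.95, 4.48, 4.42, 3.91, 4.24 and 3.90. None of the 5 ranges overlapped, and Npas2 was the only one of the 10 genes called higher at all 4 steps. Its P0 median lay 4.21 above that of e14.5, a larger absolute difference than in 99.9% of genes, and the adult median lay a further 1.65 above P0. Whether the table's log scale holds a prior count is not stated. If it does, the difference from e12.5 and e14.5, where Npas2 was near the bottom of the scale, would be understated. After quantile normalization the step from e12.5 to e14.5 was 0.24 and the ranges overlapped.

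Clock itself, whose protein NPAS2 can replace, moved little before birth. Its stage medians were 1.72, 2.04, 2.20 and 2.01 from e12.5 to P0, and no neighbouring pair among these stages was apart. Adult values were 3.22, 3.50, 3.48, 3.33, 3.51 and 3.58, all above every P0 value, a difference of medians of 1.48. Per kilobase, Npas2 stood at a median of 0.108 RPKM and Clock at 3.29 RPKM at e12.5, and at 17.1 and 11.2 RPKM in adults, so the order of the 2 partners turned between these stages. At e17.5 all Npas2 values still lay below all Clock values, and at P0 the 2 genes overlapped, with medians of 5.44 and 4.03 RPKM.

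Arntl, the common partner, reached its adult level by birth. Its medians were 2.25, 2.77, 3.44, 4.18 and 4.05, with no overlap between neighbouring stages up to P0. P0 lay 1.40 above e14.5. P0 values ran from 3.98 to 4.29 and adult values were 4.0, 4.26, 3.79, 4.03, 4.07 and 4.19, so the last 2 stages overlapped.

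Among the repressors, the 3 Period genes followed different courses. Per1, which is also induced by light and by cAMP signalling, had medians of 2.91, 2.69, 3.13, 3.77 and 4.61. It was apart at each step from e14.5 on, by 0.45, 0.64 and 0.84, and e12.5 overlapped e14.5. Per2 had medians of 0.32, 1.23, 1.55, 1.90 and 3.34, and its ranges were apart from e12.5 to e14.5 and from P0 to adult. Adult Per2 was 3.28, 3.88, 3.83, 3.13, 3.39 and 2.91, with libraries 2 and 3 the highest.

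Per3 had no rise before birth, and its median was the lowest of the 3 at e14.5, e17.5 and P0. Its medians were 0.35, −0.21, −0.40 and −0.13 from e12.5 to P0, with overlap at every step. The P0 values were 0.59, −0.68, −0.13, 0.13, 0.41, 0.40, 0.42, −0.15, −0.25, −0.61 and −0.58 in libraries 1 to 11, and their range of 1.28 was wider than that of 95.4% of genes. Adult values were 2.92, 3.51, 3.59, 2.95, 3.69 and 3.29. The adult median lay 3.53 above P0, or 11.6 times in RPKM, with a gap of more than the whole P0 range between the 2 groups.

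The 2 Cryptochrome genes followed different courses. Cry1 had medians of 3.53, 3.58, 3.45, 3.49 and 3.29, and no neighbouring stages were apart. Its range was 0.13 at e12.5 and 0.20 at e14.5, narrower than in all but 1.4% and 2.1% of genes. In adults Cry1 spread over 0.87, with 2.96 in library 5 and 2.65 in library 6 against 3.25 to 3.52 in the others. Cry2 had medians of 3.17, 3.44, 3.55, 4.0 and 5.61 and was apart from e17.5 to P0 (0.45) and from P0 to adult (1.61). At e12.5 the median of Cry1 was 11.5 RPKM and that of Cry2 9.02 RPKM, and in adults 9.76 and 48.8 RPKM.

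Nr1d1, which encodes the repressor of Arntl, was the most abundant of the 10 genes from e14.5 on. Its medians were 2.82, 4.63, 5.17, 5.77 and 6.70, and the steps from e12.5 to e14.5 (1.81), from e17.5 to P0 (0.60) and from P0 to adult (0.93) were apart. Nr1d1 and Arntl therefore were both higher at P0 than at e14.5. Nr1d1 overlaps the thyroid hormone receptor gene Thra, which lies on the opposite strand, and whether reads were counted by strand is not given in the sources used here. Thra was at medians of 6.43, 7.79, 8.69, 9.03 and 8.23, above Nr1d1 at every stage, and its adult median lay below that of P0 while that of Nr1d1 lay above. Over the libraries of a stage, r between Nr1d1 and Thra was 0.64, 0.88, 0.62, 0.79 and −0.22 from e12.5 to adult. If strand was not used, reads of the 2 genes cannot be told apart, and this was not tested.

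Dbp, the output regulator, had the largest step of the 10 genes between birth and adulthood. Its medians were 0.79, 1.42, 1.46 and 1.72 from e12.5 to P0. The P0 values were 2.22, 1.47, 1.38, 1.91, 1.58, 2.60, 2.48, 1.72, 1.95, 1.22 and 1.12, a range of 1.48, which was wider than that of 97.0% of genes. In adults Dbp stood at 4.92, 5.70, 5.71, 5.63, 6.08 and 5.36. The lowest adult value was library 1 and still lay above the highest P0 value, and the medians differed by 3.94, or 15.4 times in RPKM. In adults the order by median RPKM was Nr1d1 (104), Dbp (50.7), Cry2 (48.8), Per1 (24.5), Npas2 (17.1), Arntl (16.6), Clock (11.2), Per3 (10.6), Per2 (10.1) and Cry1 (9.76). Dbp and Cry2 overlapped in that order, as did Per1 and Npas2, Npas2 and Arntl, and Clock, Per3, Per2 and Cry1 overlapped each with the next.

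Of 22 other clock genes on a list set beside these, 19 were in the table. From P0 to adult, 13 were higher and 4 lower, against 29.3% and 25.2% of all genes, with a median difference of 1.08 against −0.01. The largest differences were in the DBP relatives Hlf (3.87) and Tef (3.18), the E-box repressors Bhlhe41 (3.34) and Bhlhe40 (2.60), the deubiquitinase gene Usp2 (2.83) and the clock repressor gene Ciart (2.49). The 4 lower genes, named after their values were seen, were Nfil3 (−1.32), whose protein competes with DBP at D-boxes, the casein kinase gene Csnk1e (−1.29), Timeless (−1.13) and its partner Tipin (−1.0), which also act in DNA replication. The RNA of Dbp and of its 2 relatives thus was higher in adults while that of Nfil3 was lower. Protein was not measured. From e14.5 to P0, 3 of the 19 were higher (Bhlhe40, Usp2 and Nr1d2, at 1.46, 1.73 and 0.81) and 5 lower, against 22.7% and 23.1% of all genes, with a median difference of 0.10.

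Genes that answer to neural activity and to stress hormones were set beside the clock genes for the step from P0 to adult, where 54.5% of all genes were called, 29.3% higher and 25.2% lower. Of 19 immediate early genes described, 10 had a higher adult range and 2 a lower one, led by Arc (5.34), Egr4 (4.53), Fos (3.73) and Egr3 (3.62). Of 12 glucocorticoid response genes, 8 were higher and 0 lower, led by Klf9 (2.94), Mt2 (2.41), Zbtb16 (1.64) and Mt1 (1.48). All 5 neuron markers, all 5 oligodendrocyte markers and all 4 microglia markers were higher in adults too, and 4 of 7 dividing progenitor markers were lower. Of 5 astrocyte markers 2 were higher and 0 lower, and of 8 forebrain markers 0 were higher and 5 lower. The part of these cell types and signals in the clock genes' stage differences was not tested.

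**Figure D2:**
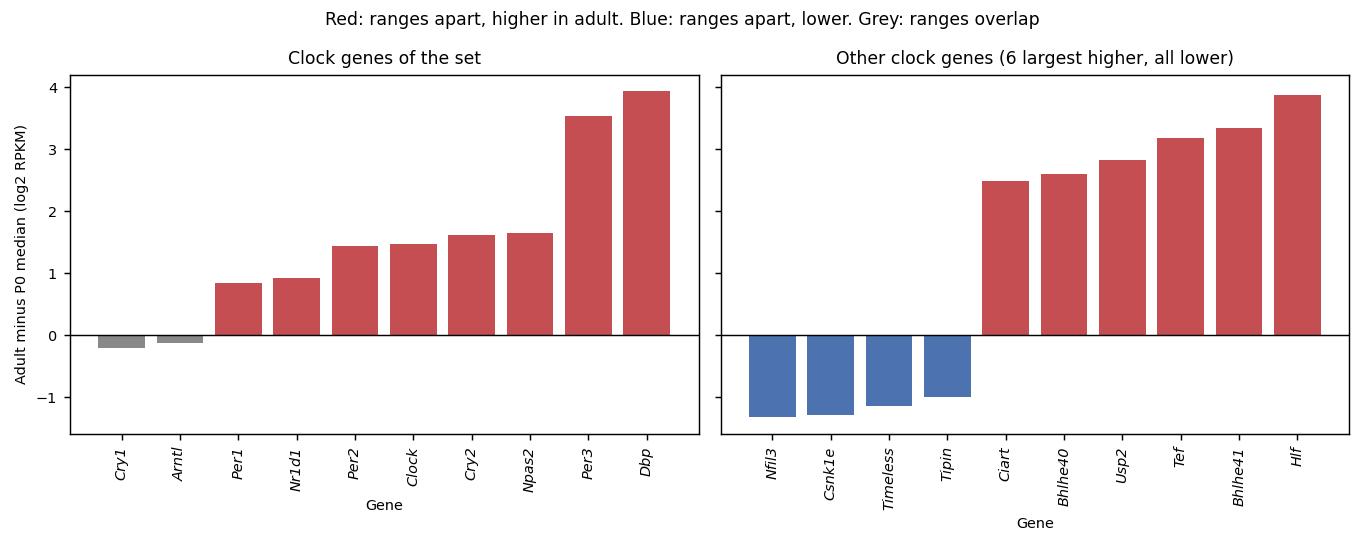
Difference of medians between adult and P0 (log2 RPKM, vertical axis) for the 10 clock genes at left and, at right, the other clock genes with the 6 largest differences among those higher in adults and the 4 that were lower, with the gene on the horizontal axis. Red bars are genes whose ranges were apart and higher in adults, blue bars apart and lower, grey bars overlapping; 8 of 10 bars at left are red, and Dbp at 3.94 and Hlf at 3.87 are the tallest in each panel.

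Within a stage, libraries that were high in 1 clock gene were often high in others at P0 and in adults, and fewer pairs of genes did so at the embryonic stages. Pearson r was computed for the 45 pairs of genes in each stage. At P0, 11 pairs (24.4%) reached r of 0.7 or more and 0 fell to −0.7 or less, where 4.01% of all pairs of a clock gene with any other gene reached 0.7 and 3.38% fell to −0.7. In adults 14 pairs (31.1%) did, against 7.96%, and 0 fell to −0.7 or less, against 7.4%. At e12.5, e14.5 and e17.5 the counts were 3, 2 and 1 pairs (6.67%, 4.44% and 2.22%), against 5.65%, 5.11% and 3.8%, with 0, 1 and 1 pairs at −0.7 or below (5.44%, 6.53% and 3.72% of all pairs). The median r over the 45 pairs was 0.11, 0.09, 0.10, 0.38 and 0.53 from e12.5 to adult. The difference between stages in these counts was not tested. Adults had 9 such pairs without library 1. P0 had 7 without library 7, 13 without libraries 3 and 5, and 5 by Spearman rho.

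Of the 225 relations (45 pairs in 5 stages), 30 had a permutation p below 0.05 and 1 held after Benjamini-Hochberg adjustment over all 225. That pair was Per3 with Cry2 at P0. Cry2 was at 4.25, 3.72, 4.0, 4.21, 4.25, 4.33, 4.15, 4.0, 3.99, 3.88 and 3.86 in P0 libraries 1 to 11. Libraries 1, 4, 5, 6 and 7 were the 5 highest in both genes, and libraries 2, 10 and 11 the 3 lowest in both. Pearson r was 0.95 over the 11 libraries (two-sided permutation p = 3e-05, adjusted p = 0.007). Spearman rho was 0.88 (permutation p = 0.00076, adjusted p = 0.125), and r was 0.94 without the 2 libraries farthest from the Per3 median. Without libraries 3 and 5, r was 0.94 (exact permutation p = 0.00041), and the adjusted p was 0.056. After quantile normalization 0 of the 225 relations held. Among 11806 genes ranked by r with Per3 at P0, Cry2 was the seventh, and Per3 was the fourth among those ranked by r with Cry2.

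Cell type markers moved with Per3 and Cry2 among the P0 libraries. The summed level of 5 astrocyte markers, 44.8 to 89.8 RPKM, had r of 0.86 with Per3 (permutation p = 0.00097) and 0.86 with Cry2 (p = 0.0008), and that of 4 microglia markers, 9.38 to 18.1 RPKM, r of 0.84 and 0.83. The 5 neuron markers, 302 to 412 RPKM, had r of 0.73 and 0.70 (0.85 and 0.89 without the 2 farthest libraries), and the 8 forebrain markers −0.62 and −0.65. Dividing progenitor markers, 23.7 to 65 RPKM over 7 genes, had r of −0.83 and −0.78. Spearman rho for the astrocyte markers was 0.85 with Per3 and 0.94 with Cry2. Of 240 such relations of the clock genes with 12 lists at P0 and in adults, 28 had a permutation p below 0.05 and 0 an adjusted p below 0.05, the smallest being 0.056. The part of cell composition in the Per3 and Cry2 relation was not tested.

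The other P0 pairs at 0.7 or above linked Arntl, Npas2, Per3, Cry2, Nr1d1 and Dbp, and Per1 with Per2. The highest were Arntl with Dbp (r = 0.80, permutation p = 0.003, adjusted p = 0.101), Npas2 with Arntl (0.77) and Per3 with Dbp (0.77). Libraries 6 and 7 had the highest Arntl (4.28 and 4.29) and the highest Dbp (2.60 and 2.48), and libraries 10 and 11 the lowest of both (3.98 and 4.06, 1.22 and 1.12). The Npas2 and Arntl relation fell to 0.36 without the 2 libraries farthest from the Npas2 median, so it rested on those libraries. Clock and Cry1 stood outside this group: the 9 pairs of Clock had r of −0.59 to 0.45 at P0, and those of Cry1 −0.59 to 0.49.

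In adults the tightest group was Per3, Cry2 and Nr1d1. Adult libraries 1 and 4 were the lowest in Per3 (2.92 and 2.95), Cry2 (5.33 and 5.45) and Nr1d1 (6.40 each), and library 5 was the highest in all 3 (3.69, 5.95 and 6.96). Per3 with Nr1d1 had r of 0.99, Per3 with Cry2 0.95 and Cry2 with Nr1d1 0.95. Their exact permutation p-values were 0.001, 0.003 and 0.001, and none held after adjustment (adjusted p = 0.070, 0.101 and 0.070). Spearman rho was 1.0, the highest it can be, for each of these 3 pairs, and still had an adjusted exact p of 0.125. The 6 libraries thus limit what can hold after this adjustment. Without library 1, r was 0.98 for Per3 with Nr1d1 and 0.93 for each of the other pairs, over 5 libraries. Dbp followed Cry2 (r = 0.89, and 0.85 without library 1) more than Per3 (0.77) and Nr1d1 (0.75), both at 0.60 without library 1. Dbp was lowest in library 1, but library 4 was near the median, at 5.63. Npas2 had r of 0.79 with Per3, 0.75 with Cry2 and 0.73 with Nr1d1 (0.76, 0.71 and 0.67 without library 1). Clock had r of 0.88 with Per1, 0.79 with Per3 and 0.77 with Nr1d1 (0.94, 0.64 and 0.63 without library 1). Over the same 6 libraries the summed level of 5 neuron markers was 2524, 3764, 3767, 3360, 4335 and 3261 RPKM. Libraries 1 and 5, the lowest and the highest in neuron markers, were also the lowest and the highest in Per3, Cry2 and Dbp, and the part of neurons in these relations was not tested.

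Npas2 was closest to Per2 in adults, with r of 0.95 (exact permutation p = 0.001, adjusted p = 0.070) and Spearman rho of 1.0. That r was 0.97 without library 1 and 0.75 without the 2 libraries farthest from the Npas2 median. Npas2 was low in libraries 1, 4 and 6 (3.95, 3.91 and 3.90) and at 4.24 to 4.48 in the other 3, and Per2 was lowest in the same libraries (3.28, 3.13 and 2.91). Choroid plexus markers (Ttr, Folr1 and 4 more) summed to 1074 and 1191 RPKM in libraries 4 and 6 and to 135 RPKM in library 1, and to 5.4, 12 and 73.6 RPKM in libraries 2, 3 and 5. All 3 libraries low in Npas2 were therefore the 3 highest in choroid plexus markers, whose part in the relation was not tested.

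**Figure D3:**
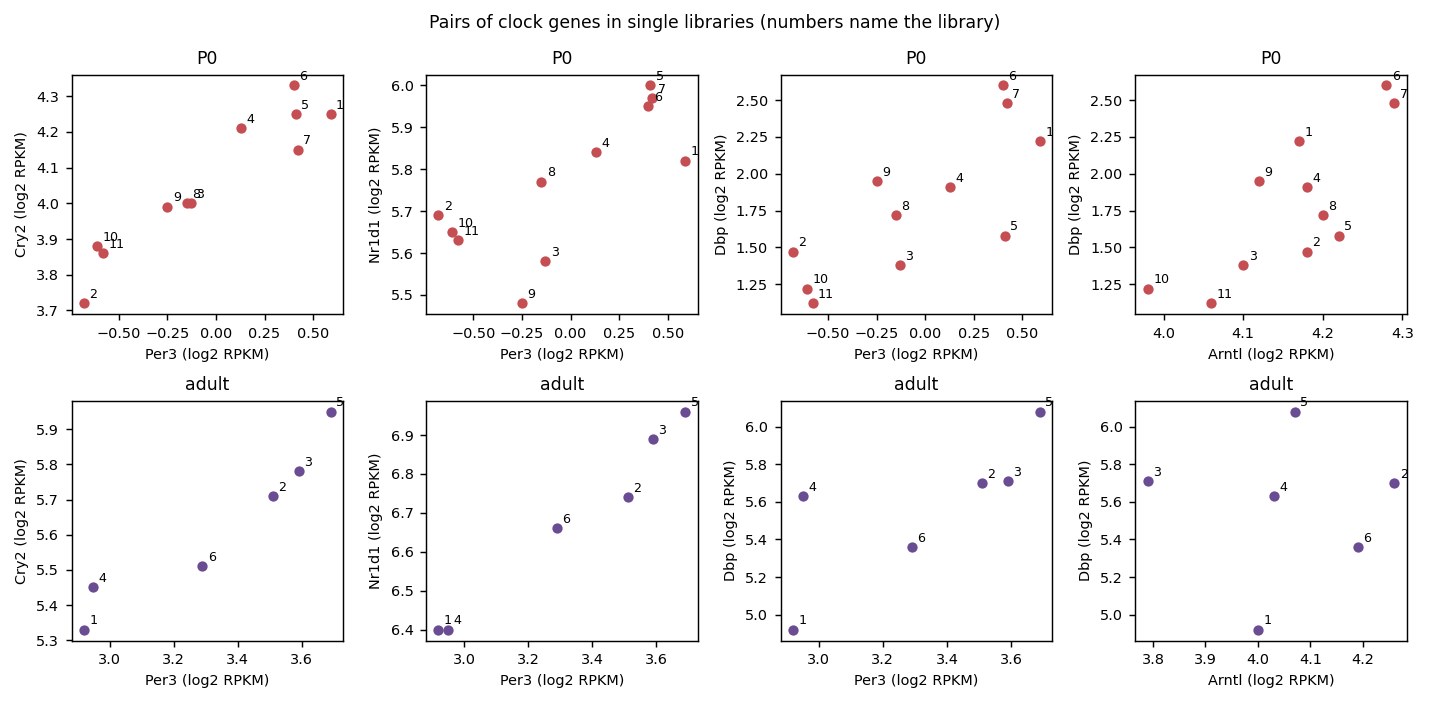
Levels (log2 RPKM on both axes) of 4 pairs of clock genes in single libraries at P0 (top, 11 points) and in adults (bottom, 6 points); the number at a point names the library. Per3 and Cry2 rise together at both stages (r = 0.95 in each), while Arntl and Dbp do so at P0 (r = 0.80) and show no such line in adults (r = 0.01).

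Arntl and Npas2, which peak at another time of day than the Per genes, Nr1d1 and Dbp in rhythmic tissue, were set against those 5 genes. Of these 10 pairs, 0 had r of −0.7 or less at any stage, and 4 at P0 and 3 in adults had r of 0.7 or more. Of all pairs of a clock gene with any other gene, 3.38% (P0) to 7.4% (adults) were at −0.7 or less. With 10 pairs, 0 is near that share and does not tell whether these genes ran apart. The share at 0.7 or more was 4.01% at P0 and 7.96% in adults. The lowest r was −0.41, −0.48, −0.52, −0.23 and −0.21 from e12.5 to adult, and r was above 0 in 9 of the 10 pairs at P0 and in 8 in adults. Before birth the strongest pairs were others. At e12.5 Arntl with Cry2 reached 0.81, at e14.5 Clock with Per2 reached 0.87 and Per2 with Nr1d1 −0.78, and at e17.5 Per2 with Per3 reached 0.77 and Per1 with Dbp −0.74. None of these held after adjustment, with adjusted p from exact or resampled permutations of 0.070 to 0.181.

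**Figure D4:**
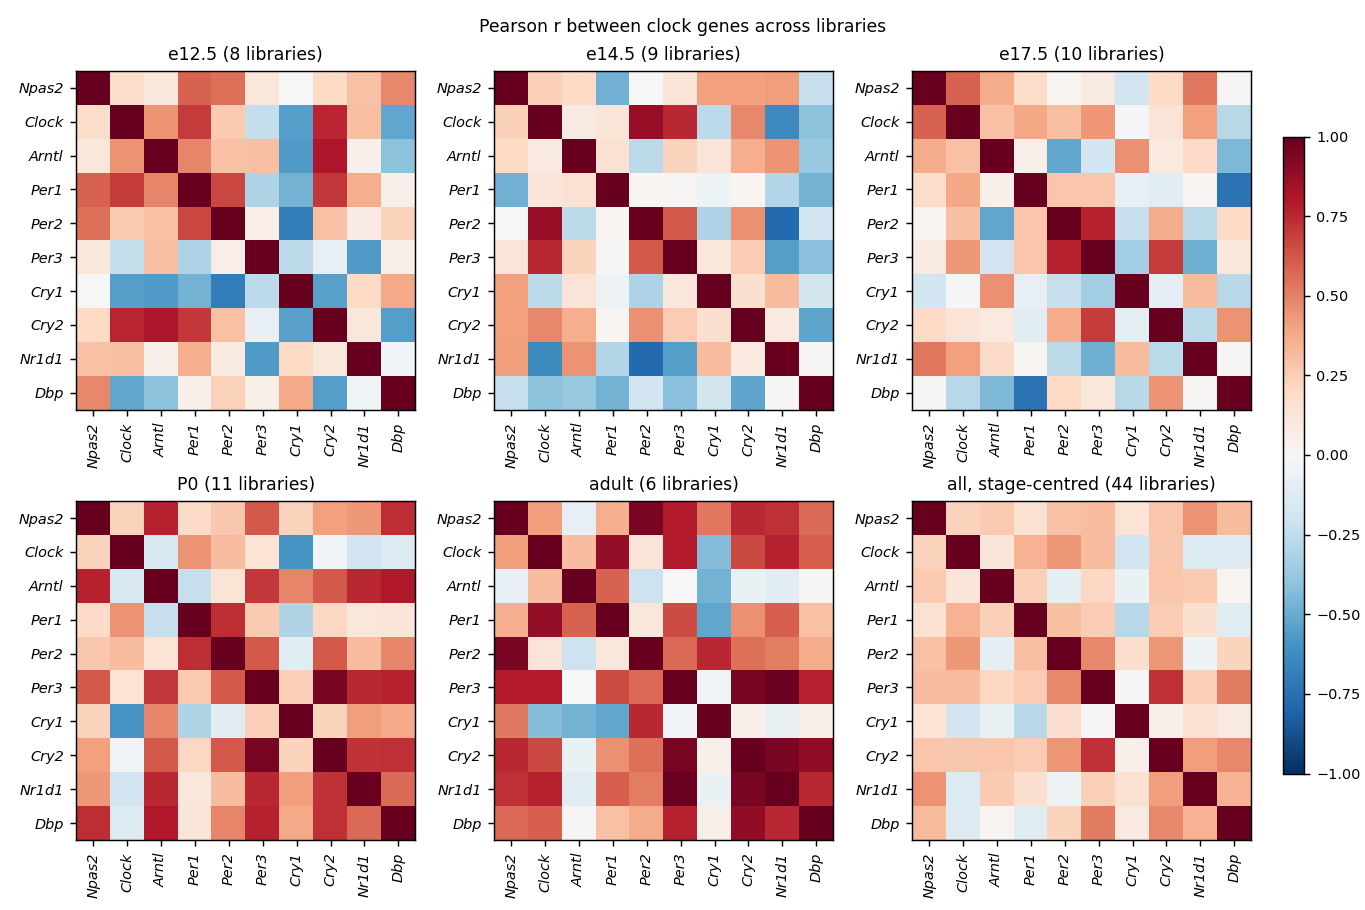
Pearson r (colour, from −1 in blue to 1 in red) between each pair of the 10 clock genes over the libraries of each stage, and over all 44 libraries after each stage's median was subtracted. Red fills most of the P0 and adult panels, with 11 and 14 pairs at 0.7 or above and 0 at −0.7 or below; the 3 embryonic panels mix colours, with 3, 2 and 1 pairs at 0.7 or above.

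Over all 44 libraries, with each stage's median subtracted, r was above 0 in 37 of the 45 pairs and had a median of 0.24. By permutation within stages, 14 pairs had p below 0.05 and 8 an adjusted p below 0.05, all 8 with r above 0. No share of all pairs of a clock gene with any other gene is given beside these counts. Per3 with Cry2 was again the highest (r = 0.73, permutation p = 1e-05, the smallest the 100000 resamples allow, adjusted p = 0.00045), with rho of 0.70 and r of 0.67 without the 2 farthest libraries. Within stages the r of this pair was −0.08, 0.25, 0.70, 0.95 and 0.95 from e12.5 to adult, so it was low at e12.5 and e14.5. Cry2 ranked second of 11806 genes by r with Per3, and Per3 ranked first by r with Cry2. The others were Per3 with Dbp (0.52), Per2 with Per3 (0.48), Cry2 with Dbp (0.48), Npas2 with Nr1d1 (0.45), Per2 with Cry2 (0.44), Clock with Per2 (0.43) and Clock with Per1 (0.35), with adjusted permutation p of 0.011 to 0.039. Ranks in these other pairs ran from 82 (Nr1d1 by r with Npas2) to 2055 (Per1 by r with Clock) of 11806 genes. By Spearman rho 6 pairs passed. Among them was Npas2 with Dbp (rho 0.43, adjusted permutation p = 0.037), which was not among the 8. Per3 with Dbp, Cry2 with Dbp and Clock with Per2 did not pass by rho (adjusted permutation p = 0.100, 0.143 and 0.143). Without the 2 farthest libraries, r of these pairs was 0.47, 0.35 and 0.29. After quantile normalization 5 pairs passed by Pearson r. Arntl and Cry1 were in none of the 8 pairs.

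Chd8, the targeted gene, was related to the 10 clock genes in each stage, 50 relations in all. Each stage mixes both genotypes, so these relations cannot be told apart from a difference between genotypes. Of the 30 at e12.5, e14.5 and P0, 3 had a permutation p below 0.05 and 0 an adjusted one. The strongest was with Dbp at e12.5 (r = −0.90, exact permutation p = 0.005, adjusted p = 0.123, rho −0.88, and −0.90 without the 2 libraries farthest from the Chd8 median). The others were with Cry2 at e12.5 (0.75, and 0.39 without the 2 farthest) and Cry1 at P0 (−0.63). Within the 7 e17.5 libraries of the lower Chd8 cluster, Clock had r of 0.81 with Chd8 (exact permutation p = 0.021, not adjusted) and rho of 0.75 (exact permutation p = 0.066), a relation picked after its values were seen. The 3 libraries of the other cluster, and the adult clusters of 3, are too few to give r.

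With the other clock genes, 190 stage-centred relations were computed, and 13 had an adjusted permutation p below 0.05, 12 of them with r above 0. Dbp and Tef, its relative in the PAR bZIP family, had r of 0.76 (permutation p = 1e-05, adjusted p = 0.002, rho 0.74, 0.73 without the 2 farthest libraries). Tef ranked first of 11806 genes by likeness to Dbp, and the stage values of r were 0.80, 0.47, 0.85, 0.80 and 0.89. Dbp also followed Bhlhe40 (0.59) and Nr1d2 (0.50), a second REV-ERB gene. Usp2 and Ciart followed both Per3 (0.58 and 0.42) and Cry2 (0.57 and 0.50), Btrc followed Cry2 (0.47), and Npas2 followed Rorb (0.49) and Nr1d2 (0.42). Clock followed Rora (0.51) and ran against Nfil3 (−0.51). The count for Arntl, Per1, Per2, Cry1 and Nr1d1 was 0 of 19 each.

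Genes outside the 10 were also ranked by their stage-centred r with each clock gene over the 44 libraries, and the 3 nearest are named. Clock was nearest to Braf, Sbno1 and Aak1, each at r of 0.86, above any r it had with a clock gene. Nr1d1 was nearest to Ndrg3 (0.77), Cplx2 and Golga7b, Per3 to Actn1 (0.73), Icmt and Dennd4b, and Cry2 to Icmt (0.71), Klhl21 and Nos1ap. Per1 was nearest to Cyfip2 (0.70), Pi4ka and Fam65a, Per2 to Znfx1 (0.70), Mast3 and Usp54, and Cry1 to Mfsd2a (0.69), Rpn1 and Manf. Npas2 was nearest to Fam163b (0.66), Kcnq5 and Gas7, Arntl to Lrfn5 (0.65), Ipcef1 and Ankrd34a, and Dbp, after Tef, to Gmppa (0.69) and Klf16. Icmt thus was among these 3 for both Per3 and Cry2. From e12.5 to adult its r was −0.13, 0.30, 0.69, 0.88 and 0.86 with Per3. With Cry2 it was −0.41, 0.74, 0.73, 0.88 and 0.93. The r of Cry1 with Mfsd2a was 0.48, 0.33, −0.38, 0.11 and 0.90 over the same stages.

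The main axis of variation among the libraries of a stage was set beside the clock genes. The first principal component over all genes with a mean of at least 0 held 38.5%, 42.9%, 34.4%, 33.3% and 52.5% of the variance from e12.5 to adult, and its sign was set so that Clock went up with it. Clock had r of 0.84, 0.97, 0.45, 0.68 and 0.70 with it. Per2 had 0.81 and Per3 0.71 at e14.5, and Dbp 0.83 in adults. With the component of e12.5, Chd8 had r of 0.80 and Dbp −0.59. Adult library 1 had a loading of −0.90 on the adult component, against 0.05 to 0.25 in the other 5, and without it the component held 44.6% of the variance, with r of 0.89 for Clock and 0.34 for Dbp. At P0, Dbp, Npas2 and Arntl had r of 0.03, 0.05 and 0.06 with it, and Per3 and Cry2 0.53 and 0.48. With the component removed from every gene, adults had 8 pairs at an absolute r of 0.7 or more in place of 14, and Clock with Per2 had a stage-centred r of 0.08 in place of 0.43.

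**Figure D5:**
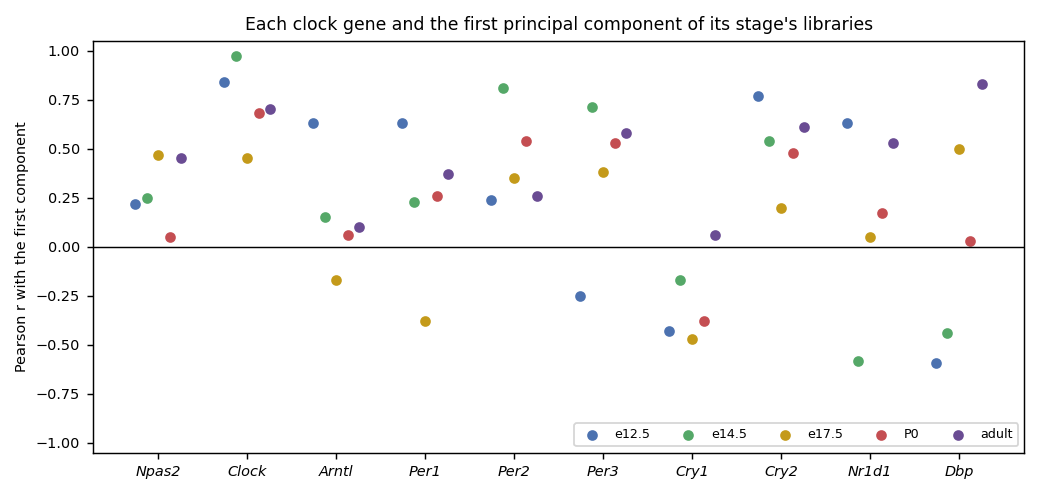
Pearson r (vertical axis) of each clock gene (horizontal axis) with the first principal component of its stage's libraries, 1 point for each stage (colour). The sign of each component was set so that Clock lies above 0, and Clock reaches 0.97 at e14.5. At P0 Npas2, Arntl and Dbp lie near 0.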

How the data were processed

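RNA values were the authors' deposited log2 RPKM table; RPKM and log scale are named by the deposited file, and the base was read from the values. Per the labels' protocols, library preparation kept strand and used polyadenylated RNA. The submitters' processing notes name bcl2fastq, STAR 2.4.2a, BWA 0.7.13, MACS2 2.10 and build mm9. For the read counter, annotation, gene filter and scaling across libraries, nothing is stated in the sources used here. The deposited peak list was not used here.

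Columns were placed in stages by their names, and numbered in table order, which is only a name. Digit codes in the names are not explained by the labels and were not used as genotypes. The genes and lists were chosen with earlier results of these data known. Genes with a mean above −2 (12102, leaving out 56) were described. Stage calls needed ranges without overlap. Correlations used Pearson r and Spearman rho with two-sided permutation p, exact below 10 libraries and from 100000 resamples otherwise, adjusted by Benjamini-Hochberg over each family. The likeness ranking and first component used genes with a mean of at least 0. The calls and correlations were tested on simulated data. Named were the 10 genes, Chd8, the 3 genes most like each, and the members of each list with the largest differences. Alternatives were median centring, quantile normalization, log2(RPKM + 1), no filter, rank correlation and leaving out libraries; removing the first component, centring e17.5 by name series, the marker correlations, leaving out P0 libraries 3 and 5 together, the adult component without library 1 and the e17.5 Chd8 cluster were added after seeing the data. Python 3.11.15, numpy 2.4.6, pandas 2.3.3 and scipy 1.17.1 were used. Results of a few listed genes are left out of the text, but the counts include these genes.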

Additional observations from a re-analysis of the deposited data

Results flagged for a closer look

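Per3 in e12.5 library 8 was at −0.16, far below the other 7 libraries of that stage, which lay between 0.19 and 0.44. The sets searched were each clock gene and Chd8 at e12.5, e14.5, e17.5 and in adults, 44 in all. P0 was not searched, because its 11 libraries were more than the rule covers. Per3 at e12.5 was the only set in which the highest or lowest library stood this far off. Chance alone gives about 1 in 20, or 2.2 sets. Without e12.5 library 8, Per3 was lower at e14.5 than at e12.5 with no overlap.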

How the results depend on the processing

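Median centring, log2(RPKM + 1) and no filter on low values moved none of the counts of calls or pairs by over 1.5 times. Quantile normalization gave 2 clock genes higher and 1 lower from e12.5 to e14.5 (5 and 0 as deposited), 1 pair at an absolute r of 0.7 or more at e17.5 (2 as deposited), 5 stage-centred pairs with an adjusted p below 0.05 (8 as deposited) and 0 within stages (1 as deposited). Spearman rho gave 5 pairs at P0 (11) and 0 adjusted within stages. With the first component removed, pairs numbered 1 at e14.5 (3), 1 at e17.5 and 8 in adults (14), and 2 within-stage pairs passed. Without the 2 libraries farthest from the first gene's median, 5 pairs at e17.5 and 24 in adults had an absolute r of 0.7 or more. In adults this left out 2 of only 6 libraries, and pairs of both signs were counted. Clock with Per3 was then at −0.81 (0.79 over all 6), Arntl with Cry1 at −0.94 and Per3 with Cry2 at 0.99. Leaving out 1 library at a time, pairs ranged from 2 to 9 at e12.5 (9 without library 6), 1 to 5 at e14.5 (1 without library 1, 5 without library 4), 1 to 4 at e17.5 (1 without library 9, 4 without libraries 2 and 8), 7 to 13 at P0 (7 without library 7) and 9 to 21 in adults (9 without library 1). Clock genes called lower from e12.5 to e14.5 ranged from 0 to 1 (1 without e12.5 library 8). Other clock genes called higher ranged from 3 to 5 from e12.5 to e14.5 (5 without e14.5 library 6), 3 to 5 from e14.5 to P0 (5 without e14.5 library 8) and 1 to 2 from e17.5 to P0 (2 without P0 library 3). The causes were not tested. No paired analysis was possible because no column could be tied to a labelled sample. Adult r of Dbp with the first component was 0.34 without adult library 1 (0.83). Depth is unknown, so counting error in the low genes Npas2 and Per3 could not be given.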
